A study of Mus musculus with 4 samples.

Results

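The genes described here are 6 factors of formative and primed pluripotency, Otx2, Fgf5, Zic2, Zic5, Tcf15 and Foxd3, and the open chromatin around them in mouse embryonic stem cells. A region belonged to a gene when it overlapped the gene span or the 50 kb on either side of it. This gave 84 regions of 170898 in the whole data set, where a region is a set of overlapping peaks merged across the 4 peak lists. The windows of Zic2 and Zic5 overlap, so the 6 genes form 5 loci. Otx2, Zic2 and Zic5 lie on chromosome 14 and hold 37 of the 84 regions.

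Accessible chromatin was mapped by ATAC-seq, in which a transposase inserts adapters into open DNA, in the embryonic stem cell line 2TS22C. One group carried a lentivirus with SOX17FNV, an engineered form of the endoderm factor SOX17, and the other a lentivirus with SOX2, a core pluripotency factor. In both groups the endogenous Sox2 gene was silenced, DOX was given, and culture was in 2i serum/Lif medium. Each group had 2 libraries, SOX17FNV replicates 1 and 2 and SOX2 replicates 1 and 2, each from 900000 cells. The titles call them biological replicates without saying whether the cultures were derived separately, so the spread given is the spread between these libraries.

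Naive embryonic stem cells, held by inhibitors of the MEK and GSK3 kinases together with LIF, pass through a formative state before they become primed for differentiation. OTX2, a homeodomain factor, works with OCT4 at the enhancers that open during that change, and Fgf5, an FGF ligand gene, is a classical marker of the epiblast after implantation. ZIC2 and ZIC5 are zinc finger factors encoded by neighbouring genes, TCF15 is a basic helix-loop-helix factor linked to the exit from naive pluripotency, and FOXD3 is a forkhead factor needed to maintain pluripotent cells. SOX2 and SOX17 are known to pair with OCT4 on different composite DNA motifs.

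Promoter sequences are shown because the calls at gene starts differed between these genes. They are RefSeq sequences of build GRCm38.p6, which shares its chromosome coordinates with mm10, and run from 250 bases before to 50 bases after an annotated start. The table held 7 entries for 4 of the 6 genes, and the 5 that overlapped a peak in at least 1 library are printed 5′ to 3′ on the gene's strand. Capitals mark matches, on either strand, to ACAAT or ACAATG (the SOX core, the second holding the first), ATGCAAAT (octamer), TAATCC (OTX), GGGCGG (GC box) or CCAAT.
Foxd3, chr4:99656049-99656348, plus strand: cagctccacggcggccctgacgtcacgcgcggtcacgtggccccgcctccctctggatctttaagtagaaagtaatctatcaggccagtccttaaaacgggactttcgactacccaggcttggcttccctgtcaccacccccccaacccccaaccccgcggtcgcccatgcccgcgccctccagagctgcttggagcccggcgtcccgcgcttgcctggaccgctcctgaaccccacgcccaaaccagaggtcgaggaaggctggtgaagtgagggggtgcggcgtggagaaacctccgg
Fgf5, chr5:98253934-98254233, plus strand: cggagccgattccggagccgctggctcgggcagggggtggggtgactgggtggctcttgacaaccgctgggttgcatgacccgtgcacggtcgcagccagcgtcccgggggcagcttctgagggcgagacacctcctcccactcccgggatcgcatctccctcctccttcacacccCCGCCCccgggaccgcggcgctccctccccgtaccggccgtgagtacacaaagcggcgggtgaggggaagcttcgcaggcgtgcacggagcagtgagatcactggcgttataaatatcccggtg
Otx2, chr14:48665060-48665359, minus strand: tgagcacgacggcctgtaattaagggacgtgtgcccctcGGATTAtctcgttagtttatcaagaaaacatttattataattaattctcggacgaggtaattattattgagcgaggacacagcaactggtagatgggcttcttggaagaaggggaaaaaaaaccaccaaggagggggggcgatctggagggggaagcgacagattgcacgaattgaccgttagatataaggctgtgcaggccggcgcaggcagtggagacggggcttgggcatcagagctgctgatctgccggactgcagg
Otx2, chr14:48662685-48662984, minus strand: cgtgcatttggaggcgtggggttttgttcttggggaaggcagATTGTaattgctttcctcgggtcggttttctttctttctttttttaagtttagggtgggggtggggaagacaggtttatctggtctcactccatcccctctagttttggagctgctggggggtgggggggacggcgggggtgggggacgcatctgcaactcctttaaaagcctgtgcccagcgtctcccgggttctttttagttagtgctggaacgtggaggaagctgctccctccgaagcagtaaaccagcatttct
Zic5, chr14:122465609-122465908, minus strand: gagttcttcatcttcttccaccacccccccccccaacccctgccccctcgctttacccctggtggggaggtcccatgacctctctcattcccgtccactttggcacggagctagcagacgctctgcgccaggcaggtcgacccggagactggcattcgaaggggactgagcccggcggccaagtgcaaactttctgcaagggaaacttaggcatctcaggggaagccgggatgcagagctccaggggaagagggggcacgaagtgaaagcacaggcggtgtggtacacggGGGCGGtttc

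The Foxd3 promoter window held no match to any of these motifs, 25 CpG dinucleotides and 65.7% G or C. The Fgf5 window held 29 CpG and 68.3% G or C, with 1 GC box. The Otx2 window at 48665060 held 16 CpG and 1 OTX motif, the Otx2 window at 48662685 held 11 CpG and 1 SOX core, and the Zic5 window held 15 CpG and 1 GC box. The median over all 32851 promoter windows was 7 CpG and 52.7% G or C. Over the same windows, 31.0% held ACAAT, 12.6% ACAATG, 1.74% the octamer, 7.06% the OTX motif, 35.7% the GC box and 37.4% CCAAT. A match describes the letters in the window and is not a bound site.

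The 4 libraries called between 92851 and 123214 peaks, and strength was read as the summit pileup, the number of fragments stacked at the summit, solved from the authors' deposited fold enrichment and p-value. Over the 57783 regions called in all 4 libraries, named shared regions here, the median pileup was 33 and 24 for SOX17FNV, against 35 and 28 for SOX2. Relative pileup is the pileup divided by that median, so 1 is the level of a typical shared region. A pileup of 24 has an exact Poisson 95% interval of 15.4 to 35.7, counting error only. Scaling by each list's lowest background instead moves the median log2 ratio of all shared regions to 0.22 in place of 0.04, so ratios under that scaling are read against 0.22. All 10 stem cell markers, Pou5f1 and Nanog among them, had a peak within 1 kb of a gene end in every library, against 63.5% of protein-coding genes. Of the markers of other cell types, such an end was called in all 4 libraries for 5 of 10 fibroblast, 5 of 9 endoderm, 4 of 6 trophectoderm and 5 of 6 neural genes. A called end shows open chromatin and not expression, and whether other cells took part in any result was not tested.

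In the 84 regions, SOX17FNV libraries called 59 and 51 and SOX2 libraries 72 and 59. All 4 libraries called 43 of the 84, 51.2%, against 33.8% over the whole genome. A single region had a call in each SOX17FNV library and none with SOX2 (SOX17FNV-only, 1.19% of 84, against 3.06% of all regions). The reverse held for 4 regions (SOX2-only, 4.76%, against 4.09%). The counts are small, and the SOX2-only share is near its background. A lower signal from fewer cells with open chromatin and a lower signal in each cell cannot be told apart in such bulk samples. The SOX2-only regions lay at Foxd3, inside Otx2 and between Zic5 and Zic2, while Fgf5 and Tcf15 had no region of either kind. Calls in 1 library alone made up 24 regions, 5 of them in a SOX17FNV library (background 16.4% of all regions) and 19 in a SOX2 library (background 18.8%). Among the 43 shared regions, relative pileups were higher in both SOX17FNV libraries than in both SOX2 libraries at 13 (30.2%, background 24.1%) and lower in both at 12 (27.9%, background 18.4%). Their median log2 ratio of SOX17FNV over SOX2 was 0.05, against 0.04 over all shared regions. Of the 13 higher regions 9 lay on chromosome 14, and of the 12 lower regions 10 lay elsewhere, 6 of them at Foxd3. Of the 23 shared regions outside chromosome 14, 17.4% were higher and 43.5% lower, against 22.5% and 18.6% over the other autosomes. Of the 20 on chromosome 14, 45% were higher and 10% lower, against 63.9% and 4.64% over that chromosome. The pooled median thus joins a median of 0.17 on chromosome 14 and one of -0.10 elsewhere.

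**Figure D1:**
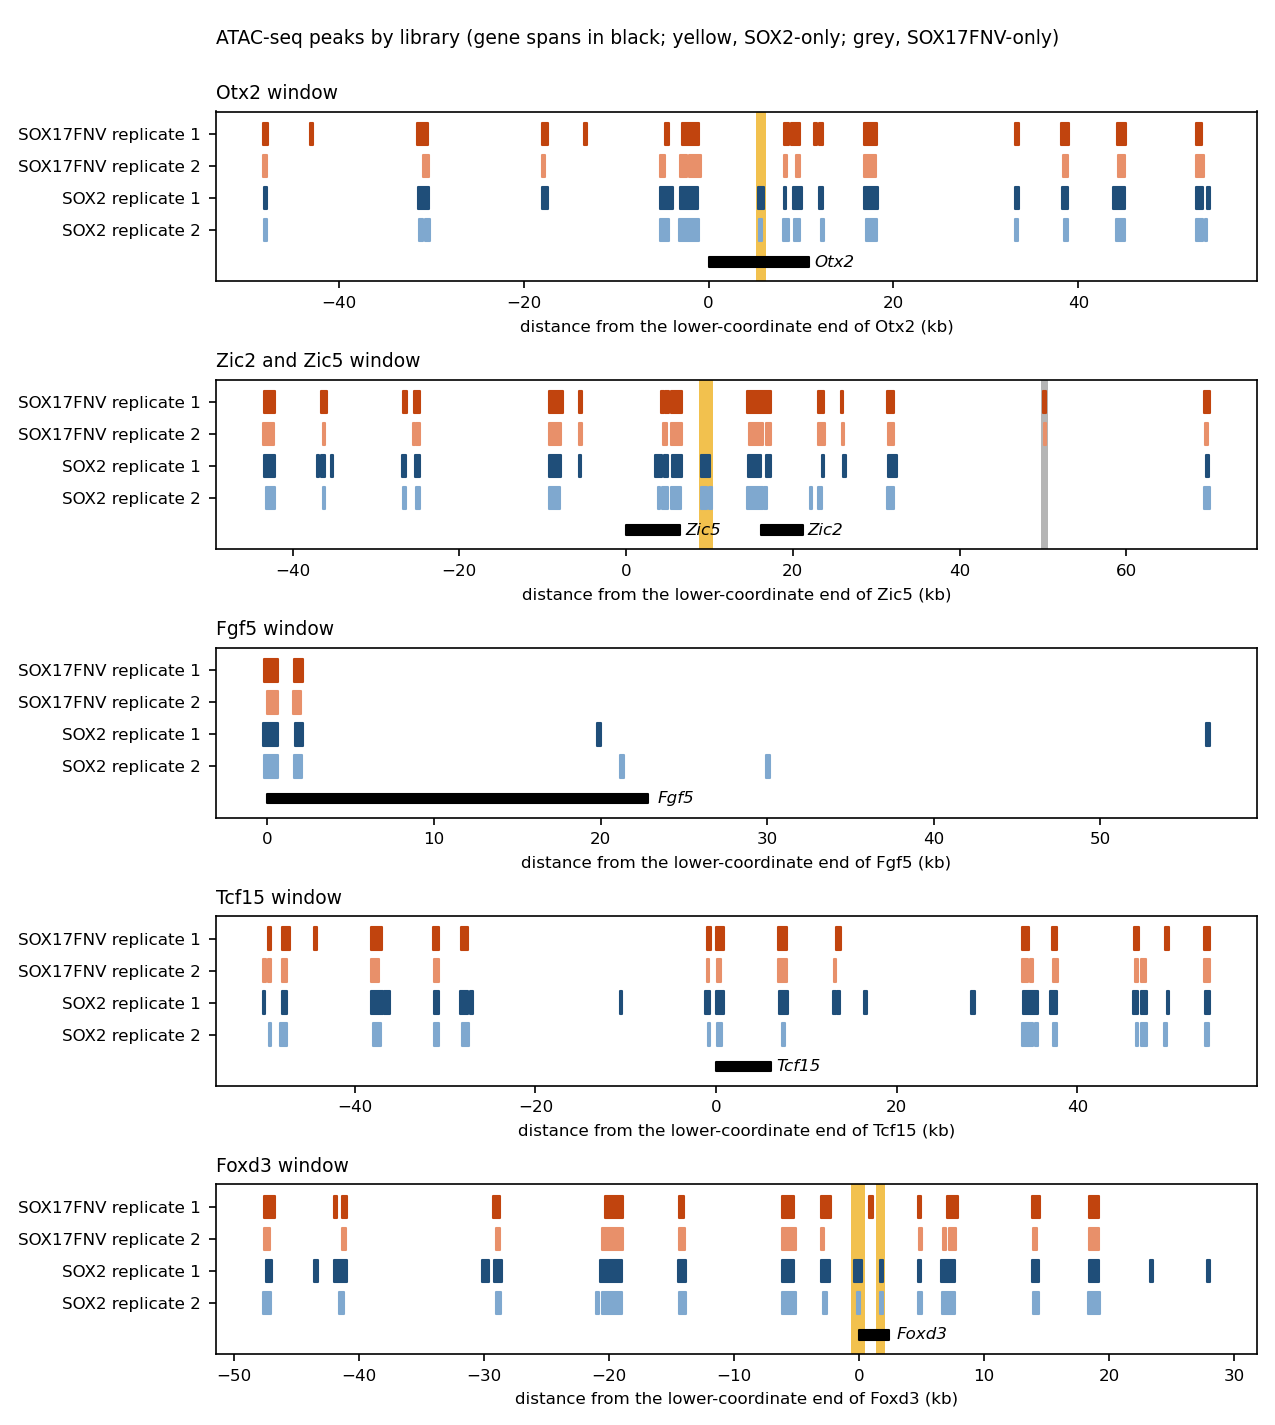
Peaks of each library (rows; SOX17FNV libraries above, SOX2 libraries below) in the 5 windows, with the distance in kb from the lower-coordinate end of the gene named on the axis. Yellow marks the 4 SOX2-only regions, 2 of them at Foxd3, 1 inside Otx2 and 1 between Zic5 and Zic2, and grey the 1 SOX17FNV-only region beyond Zic2.

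Foxd3 (chromosome 4, 99656299 to 99658671) was the locus with the most SOX2-only regions, 2 of 19, and both overlapped the gene. The first, at 99655924 to 99656543, spans the whole promoter window printed above. No peak was called there in either SOX17FNV library, against pileups of 45 and 30 in the SOX2 libraries, which are relative pileups of 1.29 and 1.07. These stood above 97.7% and 93.5% of all SOX2-only regions in the same libraries. Elsewhere in the SOX17FNV lists, at local backgrounds within 10% of the one that the SOX2 calls imply here, the weakest summits called had pileups of 22 and 20. No summit below that height was called at such a background, so an uncalled promoter is not shown to be closed. Of all promoter windows, 42.2% were called in all 4 libraries and 0.706% in both SOX2 libraries but neither SOX17FNV library.

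The second SOX2-only region, at 99657931 to 99658125 near the other end of the gene, had SOX2 pileups of 32 and 27. The weakest summits at a like background were 23 and 21 in the SOX17FNV libraries. The -log10 q of the SOX2 calls was 1.90 and 2.02, close to the limit of 1.30, against 7.09 and 3.40 at the promoter region. When peaks needed a -log10 q of at least 5, the promoter region was called in SOX2 replicate 1 alone and the second region in no library. The third region on the gene, at 99657125 to 99657327, was called in SOX17FNV replicate 1 alone, with a pileup of 22. Thus no region on the Foxd3 gene was called in SOX17FNV replicate 2.

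All 11 shared regions of the Foxd3 window lay outside the gene, and 8 of them had a log2 ratio below 0. Their median log2 ratio was -0.23. Relative pileups were lower in both SOX17FNV libraries at 6 of the 11 and higher in both at 1, against 18.4% and 24.1% of all shared regions. Of the shared regions within 2 Mb of the window, 23.6% were lower in both and 11.8% higher. The window's median log2 relative pileup was -0.19 and 0 in the SOX17FNV libraries, against 0.23 and 0.19 with SOX2, so the groups did not overlap. By the authors' fold enrichment, which divides by the local background, the window's median log2 ratio was -0.02. The region 13866 bp below the gene start (99641839 to 99642433) had pileups of 21 and 19 in the SOX17FNV libraries, against 41 and 34 in the SOX2 libraries. Its relative pileup was 0.714 ± 0.11 with SOX17FNV and 1.19 ± 0.0303 with SOX2 (SD, n = 2 each), a log2 ratio of -0.74. The region 5056 bp below the gene (99650129 to 99651243) had pileups of 29 and 25 with SOX17FNV against 61 and 40 with SOX2, a log2 ratio of -0.72. The region 11426 bp above the gene (99670097 to 99670795) had 35 and 29 with SOX17FNV against 70 and 41 with SOX2, a log2 ratio of -0.61. These 3 regions were picked after their values were seen, and in each the groups did not overlap.

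The strongest shared region of the Foxd3 window, 18921 bp below the gene (99635529 to 99637378), did not follow this pattern. It had pileups of 68 and 49 in the SOX17FNV libraries, against 71 and 64 in the SOX2 libraries, and relative pileups of 2.05 ± 0.0134 with SOX17FNV and 2.16 ± 0.182 with SOX2 (SD, n = 2 each). The log2 ratio was -0.07, and the groups overlapped (exact permutation test, two-sided, p = 1). With 2 libraries against 2, the smallest p such a test can give is 0.333, so no single region can pass 0.05.

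The 110 shared regions within 2 Mb of the Foxd3 window had a median log2 ratio of -0.08. The regions at 13866 and 5056 bp below the gene were each lower than all but 1.82% of these neighbours. For the window's median, the difference from the neighbours was -0.15, and it was -0.01 without SOX2 replicate 1 and -0.06 without SOX17FNV replicate 2. Leaving out SOX17FNV replicate 1 gave -0.27, and leaving out SOX2 replicate 2 gave -0.30. By fold enrichment it was -0.005. The log2 ratios of those 2 regions were -0.56 and -0.45 by fold enrichment, and with each library left out they ranged from -0.91 to -0.59 and from -0.86 to -0.57. Of the 11 shared regions, 5 had a log2 ratio below 0 by pileup, by fold enrichment and with each library left out, against 22.1% of all shared regions, and 1 stood above 0 throughout, against 26.4%. The 5 Foxd3 regions below 0 were those at 13866 and 5056 bp, the region at 11426 bp (-0.14 by fold enrichment) and 2 more. These lay 40958 bp below the gene (-0.48 by pileup, -0.25 by fold enrichment) and 2350 bp above it (-0.35 and -0.10), and were also picked after their values were seen.

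**Figure D2:**
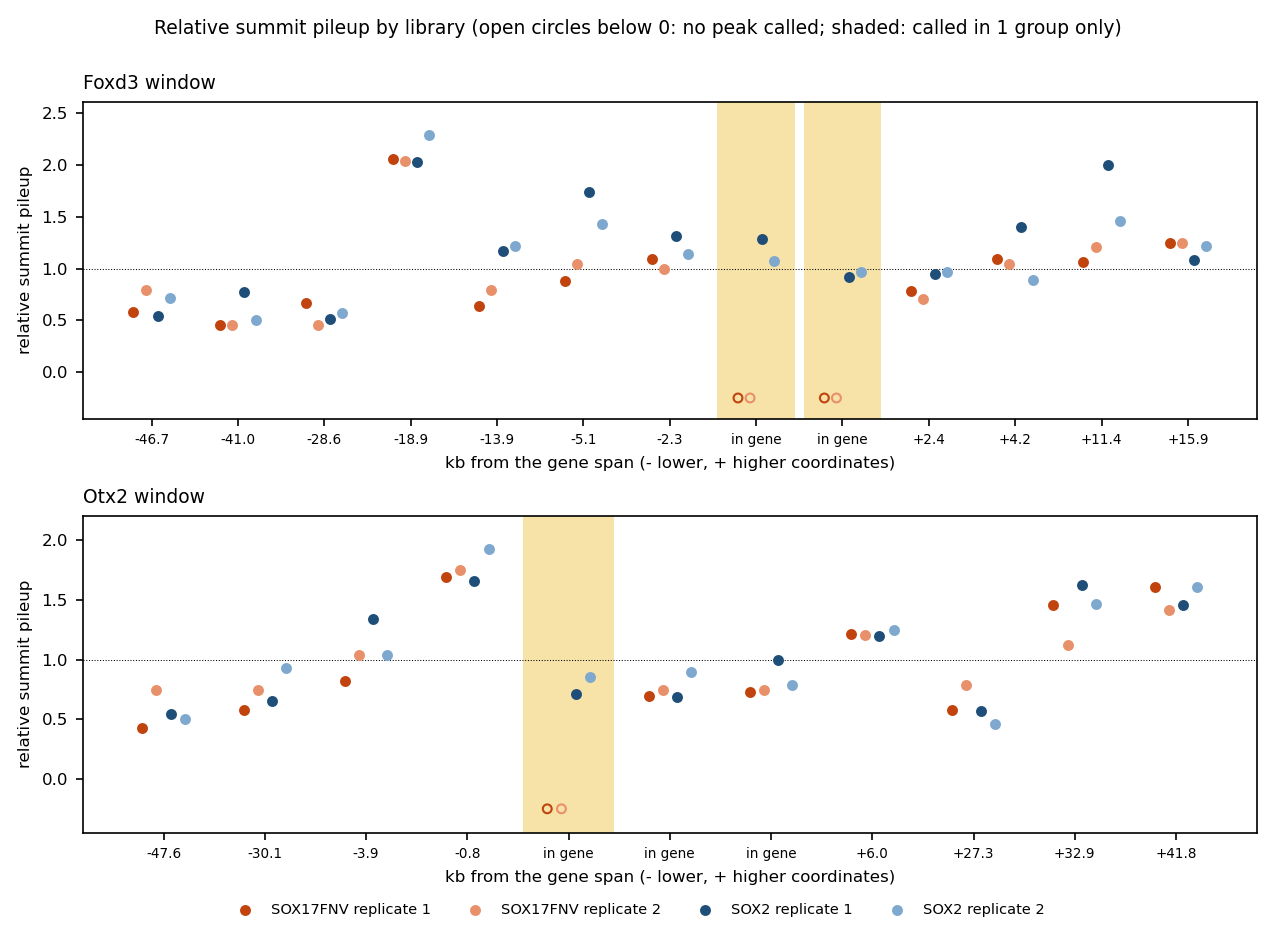
Relative summit pileup (1 is the median shared region, dotted line) of each library at the shared and group-specific regions of the Foxd3 and Otx2 windows, ordered along the chromosome and labelled by kb from the gene span. Open circles below 0 mark libraries with no call, and yellow marks SOX2-only regions. At Foxd3 the regions at -13.9, -5.1 and +11.4 kb show SOX17FNV libraries below both SOX2 libraries, while the strongest region at -18.9 kb shows the groups overlapping.

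Otx2 (chromosome 14, 48656781 to 48667644) had 19 regions, 10 of them shared. The gene is on the minus strand, so its starts lie at the higher coordinates. The SOX2-only region lay inside the gene at 48662165 to 48662747 and reached over the annotated start at 48662734, whose promoter window is printed above. The peak of SOX2 replicate 1 reached into that window and the peak of SOX2 replicate 2 did not. The region had no call in the SOX17FNV libraries and pileups of 25 and 24 in the SOX2 libraries, relative pileups of 0.714 and 0.857. By pileup the SOX2 values stood above 71.5% and 81.2% of all SOX2-only regions in the same libraries. By -log10 q the peaks stood at percentiles 37.2 and 50.5 of their full lists. The weakest summits at a like background, as implied by the SOX2 calls, were 15 and 14 in the SOX17FNV libraries. This background leaves out the higher pileups with SOX17FNV on chromosome 14 described below. The height needed for a call may therefore be greater. With a -log10 q of at least 5 the region was called in no library. On chromosome 14 as a whole 1.57% of regions were SOX2-only and 8.65% SOX17FNV-only. The outermost Otx2 start, at 48667644, had no peak over its promoter window in any library, and neither did the start at 48667508. Over all promoter windows, 47.1% had no call.

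The remaining start lay in a shared region. That region, at 48664888 to 48665507, spans the promoter window of the start at 48665109 and had pileups of 23 and 18 in the SOX17FNV libraries, against 24 and 25 in the SOX2 libraries. Relative pileups were 0.723 ± 0.0375 with SOX17FNV and 0.789 ± 0.146 with SOX2 (SD, n = 2 each), and the groups overlapped. The next region inside the gene, at 48665716 to 48666880, had pileups of 24 and 18 with SOX17FNV against 35 and 22 with SOX2, relative pileups of 0.739 ± 0.0161 with SOX17FNV and 0.893 ± 0.152 with SOX2, and a log2 ratio of -0.27 with no overlap. The strongest shared region, 820 bp below the gene (48653597 to 48655961), had pileups of 56 and 42 in the SOX17FNV libraries, against 58 and 54 in the SOX2 libraries. Its log2 ratio was -0.06 (exact permutation p = 1), and it turned to 0.06 without SOX2 replicate 2 and to 0.14 when pileups were scaled by the background. The 3 regions on the Otx2 gene thus had mean relative pileups below 1 wherever they were called, and the strongest region lay just outside, past the end of the gene.

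The shared regions of chromosome 14 had higher pileups with SOX17FNV than with SOX2, with a median log2 ratio of 0.38 over 2520 regions, against 0.03 over the other autosomes, but a median of -0.08 by fold enrichment. On this chromosome 63.9% of shared regions were higher in both SOX17FNV libraries and 4.64% lower in both. Around Otx2 the ratios were smaller. The 100 shared regions within 2 Mb of the window had a median of 0.19, or -0.14 by fold enrichment, and 40 of them were higher in both SOX17FNV libraries and 8 lower. Their median log2 relative pileup was 0.08 and 0.12 in the SOX17FNV libraries, against -0.22 and -0.16 in the SOX2 libraries. The 10 shared regions of Otx2 had -0.37 and -0.14 in the SOX17FNV libraries, against 0.13 and -0.03 with SOX2, again without overlap but in the opposite direction. Their median log2 ratio was -0.09, or -0.26 by fold enrichment, but 0.03 without SOX2 replicate 2. Of the 10, 8 had a log2 ratio below 0, with 1 higher and 2 lower without overlap.

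Set against its neighbours, the median shared region of Otx2 was lower by 0.28 on the log2 scale (a difference of -0.28). The difference was -0.20 with neighbours within 1 Mb, -0.31 within 5 Mb and -0.47 against all of chromosome 14. With each library left out it ranged from -0.31 to -0.18, the value without SOX2 replicate 2, and by fold enrichment it was -0.12. Otx2 thus lay below its neighbours in each of these settings, at sizes that depend on which neighbours and which measure are used.

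Zic5 (chromosome 14, 122459160 to 122465658) and Zic2 (122475384 to 122480328) had 18 regions in their joint window, 10 of them shared. All 10 had a log2 ratio of pileup above 0, and 8 were higher in both SOX17FNV libraries, while by fold enrichment their median was -0.06. Both counts are near the share around them, where 108 of the 119 neighbours had a ratio above 0 and 75.6% were higher in both SOX17FNV libraries. Their median log2 ratio was 0.43, and that of the 119 shared regions within 2 Mb was 0.49, or -0.15 by fold enrichment. The median log2 relative pileup of the 10 was 0.51 and 0.77 in the SOX17FNV libraries, against 0.21 and 0.34 in the SOX2 libraries. The difference from the neighbours was -0.05, and it ranged from -0.15 to 0.09 over the alternatives. The higher pileups at Zic2 and Zic5 were therefore close in size to those of the shared regions around them.

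The region over the lower end of Zic2, at 122473708 to 122476561, also covers the upper end of the noncoding gene 2610035F20Rik and was the strongest shared region nearest to Zic2. It had pileups of 85 and 58 in the SOX17FNV libraries, against 66 and 57 in the SOX2 libraries. Relative pileups were 2.50 ± 0.112 with SOX17FNV and 1.96 ± 0.106 with SOX2 (SD, n = 2 each), a log2 ratio of 0.35 with no overlap (exact permutation p = 0.333). By fold enrichment this ratio turned to -0.14. The region over the Zic5 promoter window, at 122464490 to 122465858, had pileups of 57 and 60 with SOX17FNV against 56 and 48 with SOX2, relative pileups of 2.11 ± 0.546 with SOX17FNV and 1.66 ± 0.0808 with SOX2, and a log2 ratio of 0.35. The second region inside Zic5, at 122462643 to 122464258, had pileups of 43 and 27 with SOX17FNV against 37 and 35 with SOX2, a log2 ratio of 0.07, and groups that overlapped. The strongest shared region nearest to Zic5, at 122415632 to 122417105 and 42055 bp below the gene, had pileups of 91 and 73 with SOX17FNV against 78 and 61 with SOX2 and a log2 ratio of 0.40 (exact permutation p = 0.333), which turned to -0.28 by fold enrichment.

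The SOX2-only region of the window lay between Zic5 and Zic2. At 122468096 to 122469312, 2438 bp above Zic5, it was SOX2-only, with no call in the SOX17FNV libraries and pileups of 43 and 33 in the SOX2 libraries. These are relative pileups of 1.23 and 1.18, by pileup above 97.0% and 96.2% of all SOX2-only regions in the same libraries. The local background was high there too, at 13.8 and 12.2, and fold enrichment was 2.96 and 2.57. By -log10 q the peaks stood at percentiles 63.5 and 54.1 of their full lists. The weakest summits at a like background, as implied by the SOX2 calls, were 21 and 19 in the SOX17FNV libraries. This background leaves out the higher pileups with SOX17FNV across chromosome 14. The height needed for a call may therefore be greater, and the region is not shown to be closed. With a -log10 q of at least 5 the region was called in SOX2 replicate 1 alone. The mean relative pileup of each shared region of the same window was higher with SOX17FNV than with SOX2. By fold enrichment their median log2 ratio was -0.06, with some regions above 0 and others below. The contrast with the SOX2-only region thus depends on the measure. The 1 SOX17FNV-only region, at 122509207 to 122509472 and 28879 bp above Zic2, was weak and was called in no library at a -log10 q of at least 5, with pileups of 15 and 13 in the SOX17FNV libraries and no call in the SOX2 libraries, where the weakest summits at a like background were 12 and 13.

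**Figure D3:**
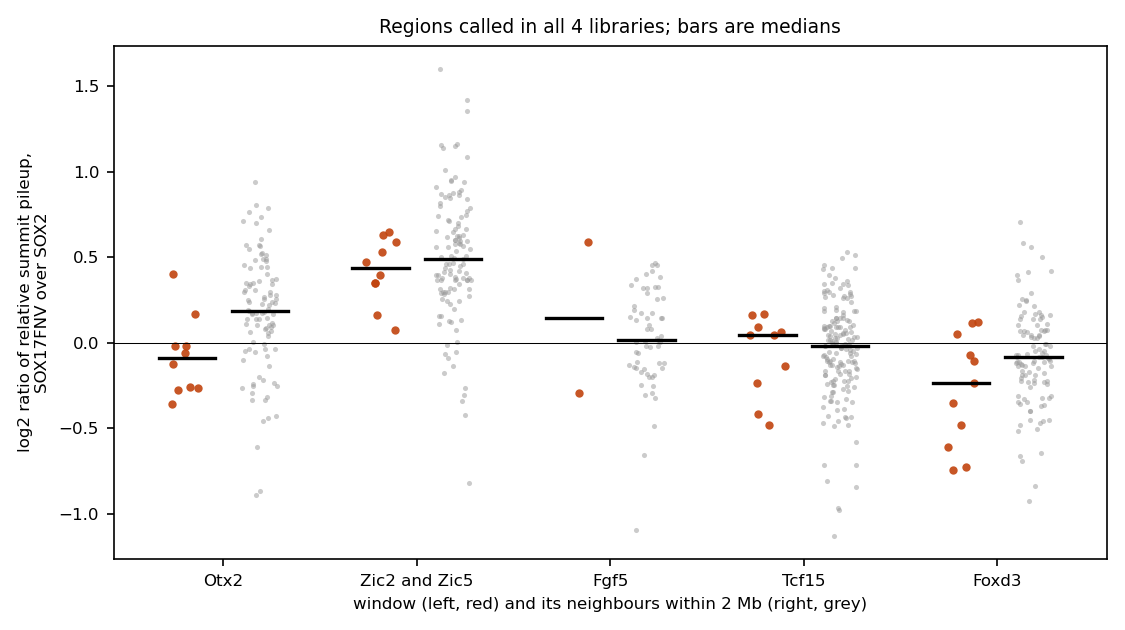
Log2 ratio of relative summit pileup, SOX17FNV over SOX2, for each shared region of the 5 windows (red) and for their neighbours within 2 Mb (grey), with medians as bars. The Otx2 median of -0.09 lies below its neighbours at 0.19, the Zic2 and Zic5 median of 0.43 lies close to theirs at 0.49, and the Foxd3 median of -0.23 lies below -0.08.

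Fgf5 (chromosome 5, 98254184 to 98277033) had the sparsest window, with 6 regions in all. Only 2 were called in more than 1 library, and both were called in all 4. The region over the promoter window, at 98253922 to 98254837, had pileups of 20 and 19 in the SOX17FNV libraries, against 30 and 24 in the SOX2 libraries. Relative pileups were 0.699 ± 0.131 with SOX17FNV and 0.857 ± 0 with SOX2 (SD, n = 2 each), a log2 ratio of -0.29 with no overlap. The second region, inside the gene at 98255742 to 98256324, differed in the other direction, with pileups of 42 and 36 in the SOX17FNV libraries, against 27 and 30 in the SOX2 libraries. Relative pileups were 1.39 ± 0.161 with SOX17FNV and 0.921 ± 0.212 with SOX2 (SD, n = 2 each), a log2 ratio of 0.59 (exact permutation p = 0.333). It was higher than all 59 shared neighbours within 2 Mb, whose median was 0.01. The ratio was 0.58 by fold enrichment and 0.37 to 0.85 with each library left out. The 4 remaining regions were called in 1 SOX2 library each, with pileups of 12 to 14, close to the weakest calls of those lists.

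Tcf15 (chromosome 2, 152143056 to 152149097) had 22 regions, 10 of them shared and none specific to a group. The region over the lower end of the gene, at 152143014 to 152143917, had pileups of 31 and 25 in the SOX17FNV libraries, against 30 and 29 in the SOX2 libraries. Relative pileups were 0.991 ± 0.0723 with SOX17FNV and 0.946 ± 0.126 with SOX2 (SD, n = 2 each), a log2 ratio of 0.07 with overlapping groups. The regions just outside, 547 bp below and 765 bp above the gene, had log2 ratios of 0.09 and 0.05, both with overlap, and were also picked after their values were seen. The strongest shared region, 27800 bp above the gene at 152176897 to 152178723, had pileups of 38 and 38 in the SOX17FNV libraries, against 67 and 53 in the SOX2 libraries. Relative pileups were 1.37 ± 0.305 with SOX17FNV and 1.90 ± 0.0152 with SOX2 (SD, n = 2 each), a log2 ratio of -0.48 (exact permutation p = 0.333), with a range of -0.73 to -0.27 over left-out libraries and -0.24 by fold enrichment. It was lower than all but 5.92% of 169 neighbours. Across the 10 regions the median log2 ratio was 0.05, against -0.02 in the neighbours, with 2 higher and 3 lower without overlap. Over the neighbours 14.8% were higher and 21.9% lower, and over all shared regions 24.1% and 18.4%, so these counts are near the background. At and beside the gene of Tcf15 the groups thus overlapped, and the region with the largest difference lay away from the gene.

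**Figure D4:**
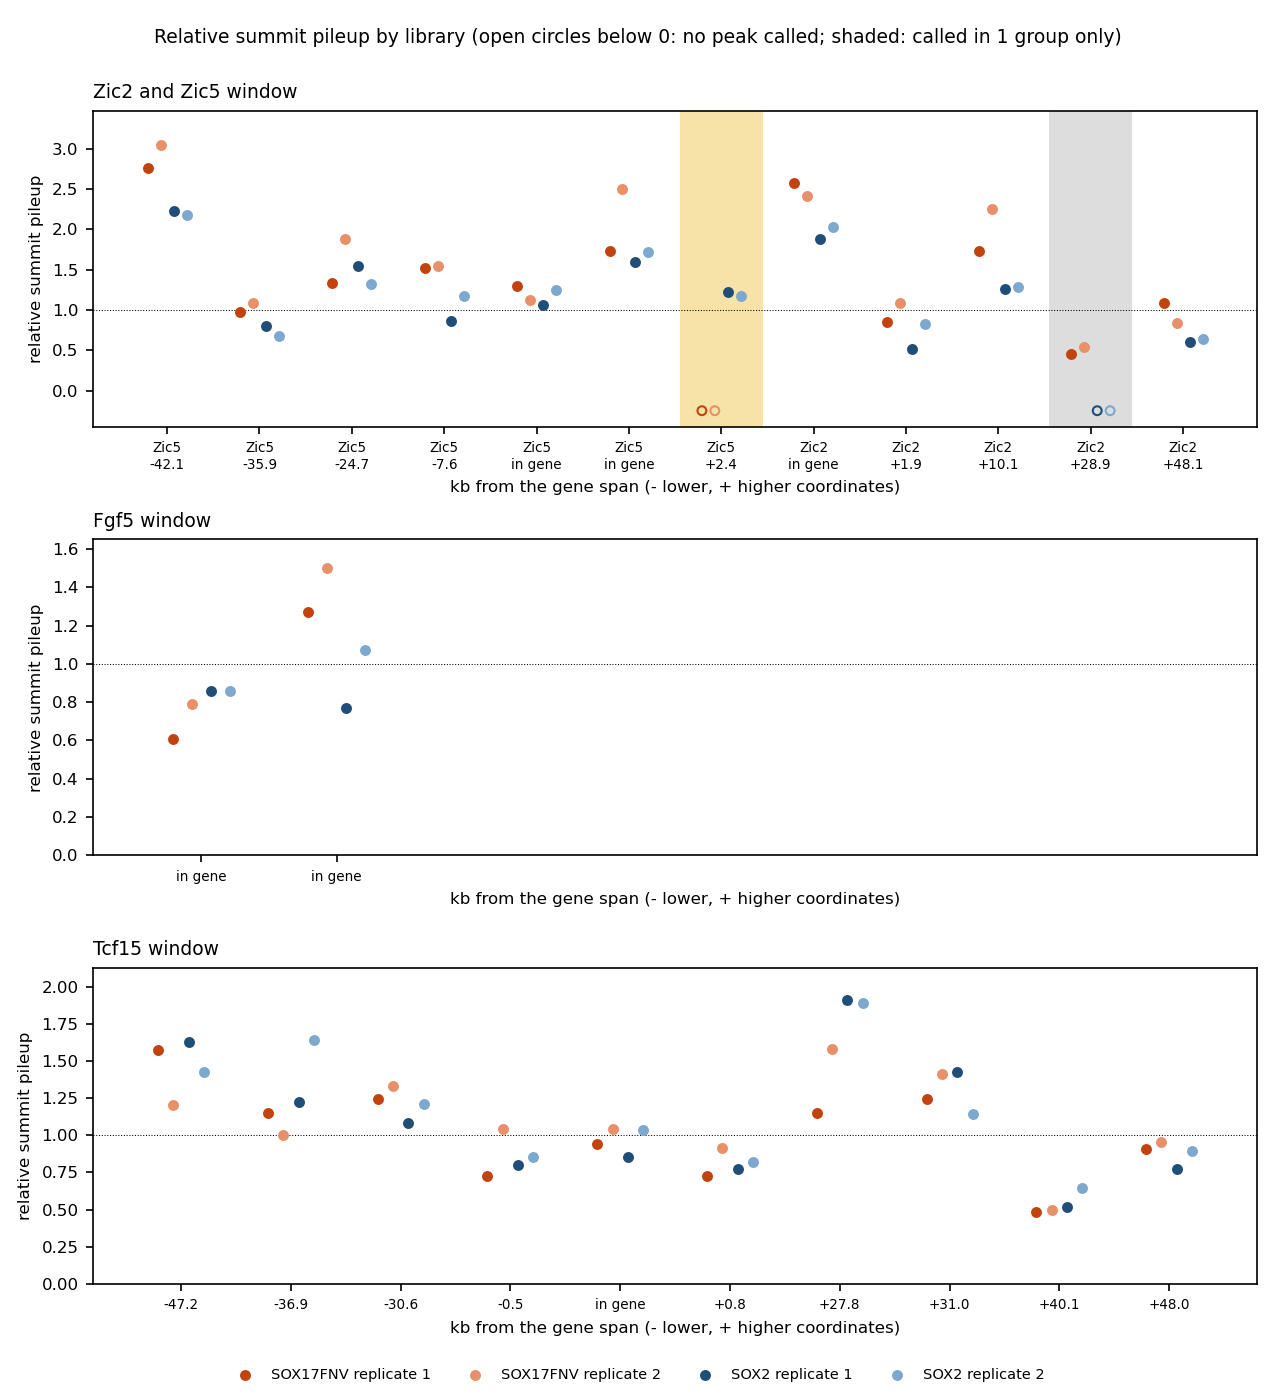
Relative summit pileup of each library at the shared and group-specific regions of the Zic2 and Zic5, Fgf5 and Tcf15 windows, drawn as for Foxd3 and Otx2, with grey for the SOX17FNV-only region. The 2 shared regions of Fgf5, both overlapping the gene and the first covering its promoter window, differ in opposite directions, with log2 ratios of -0.29 and 0.59.

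Shared regions of the 6 genes had a median width of 937 bp, against 834 bp over all shared regions, and those of the chromosome 14 genes 1297 bp. The widest on a gene was the 2854 bp region at the lower end of Zic2. A peak within 1 kb of a gene end was called in all 4 libraries for 4 of the 6 genes, near the 63.5% of protein-coding genes. Foxd3 lacked one in SOX17FNV replicate 2, and Otx2 lacked one in SOX2 replicate 2. In that SOX2 library, peaks near both ends of Otx2 lay just beyond the 1 kb limit.

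A wider list of 30 other formative and primed genes was counted in the same way. The list was not picked for how its genes moved, but was chosen with earlier results of these data known. Its windows held 710 regions, 21 SOX17FNV-only (2.96%) and 30 SOX2-only (4.23%), close to the 3.06% and 4.09% of all regions. Of its 286 shared regions, 72 were higher in both SOX17FNV libraries (25.2%, against 24.1% of all shared regions). Another 62 were lower in both (21.7%, against 18.4%), and the median log2 ratio was 0.02. The gene medians were above 0 for 16 genes and below 0 for 14. Lefty1 and Lefty2, neighbouring genes of secreted Nodal inhibitors whose windows overlap, each had 9 of 15 shared regions higher and none lower, with a median of 0.25. Of their 22 and 24 regions, 2 each were SOX17FNV-only. Foxp1, a forkhead factor gene, had 5 SOX17FNV-only and 1 SOX2-only regions of 39. Medians near or below -0.30 stood at Sox4, a SOX factor gene (-0.40 over 4 shared regions), Spry4, an inhibitor of FGF signalling (-0.36, with 6 of 10 lower and 3 of 27 regions SOX2-only), and Sox3, a SOX factor gene (-0.33 over 2). Dusp6, a phosphatase gene induced by ERK (-0.33, 4 of 7 lower), Tcf7l2, a Wnt pathway factor gene (-0.30, with 8 of 16 lower and 4 of 49 regions SOX2-only), and Pim2, a kinase gene (-0.30, 6 of 8 lower), stood there too. Sox3 and Pim2 lie on chromosome X, and stood -0.23 and -0.20 from the median of that chromosome's shared regions. The ETS factor genes Etv1, Etv4 and Etv5 had medians of 0.17, 0.17 and 0.08. These genes were named after their values were seen.

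A list of 16 naive genes had 419 regions, with 7 SOX17FNV-only (1.67%) and 20 SOX2-only (4.77%). Its 176 shared regions included 31 higher in both SOX17FNV libraries (17.6%) and 48 lower in both (27.3%), with a median log2 ratio of -0.09. The gene median was below 0 for 13 of the 16. Among these, Nanog and Dppa3 have overlapping windows, Nr0b1 had 1 shared region, and Klf2 and Tfcp2l1 stood at -0.02. Nr0b1 lies on chromosome X, and its region stood -0.71 from the median of that chromosome. Of the naive genes on chromosome 14, Klf5 had a median of 0.42 over 15 shared regions and Bmp4 one of -0.05 over 11. Otx2 was thus not alone in lying below the chromosome's 0.38. Shared regions lower in both SOX17FNV libraries thus made up 27.9% at the 6 genes and 21.7% in the wider formative list. They made up 27.3% in the naive list and 18.4% over all regions. The shares higher in both were 30.2%, 25.2%, 17.6% and 24.1% in the same order. The shares of the 6 genes pool chromosome 14 with the rest. Outside chromosome 14 their shared regions were higher at 17.4% and lower at 43.5%. Differences between these lists were not tested.

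**Figure D5:**
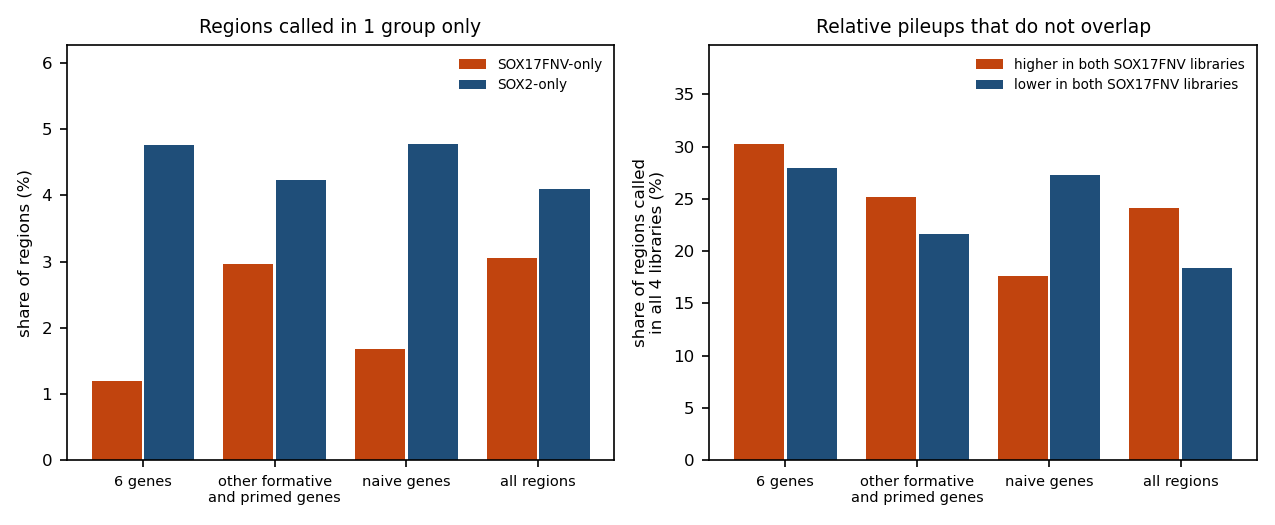
Share of regions called in 1 group only (left) and share of shared regions whose relative pileups did not overlap between groups (right), for the 6 genes, 30 other formative and primed genes, 16 naive genes and all regions. The 6 genes have 1.19% SOX17FNV-only and 4.76% SOX2-only regions, against 3.06% and 4.09% over all regions. Their shared regions pool 20 on chromosome 14 with 23 elsewhere.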

How the data were processed

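ATAC-seq peak lists of 4 libraries were used, 2 with SOX17FNV and 2 with SOX2, grouped by their titles. The submitters' processing notes name Bowtie2, SAMtools, MACS2 and the build mm10, and the sources used here do not give versions, settings, filters or any read shift for the transposase. Each line of the deposited narrowPeak lists holds, by that layout, the fold enrichment of a summit over its local background (a ratio), the -log10 of its p-value and q-value, and a score, all values of the authors' own peak calling. The lowest -log10 q was 1.30 in every list, a q of 0.05, and the deposited score was not used.

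Peaks on chromosomes 1 to 19, X and Y were merged where they overlapped by at least 1 bp. The summit pileup was solved from the deposited fold and p-value, and a whole number matched the -log10 p within 0.001 for 100% of summits. The files give no read totals, so pileups were divided by each library's median over regions called in all 4 libraries, which assumes that the typical shared region is equally open in every library. A peak's fold and pileup were used to describe levels, and the comparison of relative pileups between lists is descriptive. Genes came from the RefSeq table for GRCm38.p6 and all 6 were found. Single regions were tested with the exact permutation test over libraries, two-sided (scipy 1.17.1, Python 3.11.15). No genome sequence was used here.

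The 6 genes, the other lists and the tests were chosen with earlier results of these data known. The regions named for each gene are those on the gene span or promoter window, the group-specific ones and the strongest shared one, and any others are said to be picked after their values were seen. Region calling and pileup solving were tested on simulated data. Alternatives changed the peak threshold, list length, overlap, flank, scaling, measure of strength, neighbour distance and libraries used. Comparisons of the Fgf5, Tcf15 and Foxd3 windows with their neighbours, and the count of regions keeping 1 direction by pileup, fold enrichment and left-out libraries, were added after seeing the data.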

Additional observations from a re-analysis of the deposited data

How the results depend on the processing

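SOX17FNV-only, SOX2-only and shared regions of the 6 genes numbered 1, 4 and 43. With a -log10 q of at least 5, the windows held 52 regions. Of these, 1 was SOX17FNV-only (1.92%, background 3.4%), 1 SOX2-only (1.92%, background 3.24%) and 22 shared (42.3%, background 34.5%). None of the 5 regions that were group-specific at the deposited threshold stayed so. Both new ones were Foxd3 window regions called in all 4 libraries at the deposited threshold. With at least 10, 25 regions gave 3 SOX17FNV-only (12%, background 3.31%), 1 SOX2-only (4%, background 2.78%) and 10 shared (40%, background 31.7%). All 4 of these group-specific regions had been called in all 4 libraries, and the 3 SOX17FNV-only ones, at Fgf5, Tcf15 and Foxd3, were higher in both SOX17FNV libraries by relative pileup. The share of SOX17FNV-only regions is thus below its background at the deposited threshold and above it here, on counts of 1 and 3. Where peaks had to cover at least 0.5 of a region, 24 were shared (28.6%, background 21%). A 20 kb flank held 42 regions, with 0 SOX17FNV-only, 4 SOX2-only (9.52%) and 24 shared (57.1%). A 100 kb flank held 155, with 5 SOX17FNV-only (3.23%), 6 SOX2-only (3.87%) and 65 shared (41.9%). The backgrounds for both flanks were 3.06%, 4.09% and 33.8%. Leaving out each library in turn gave 1 to 6 SOX17FNV-only and 5 to 18 SOX2-only regions. SOX2-only regions came to 18 (21.4%, background 16.7%) when SOX2 replicate 2 was left out. They came to 9 (10.7%) when either SOX17FNV replicate 1 (background 9.53%) or SOX2 replicate 1 (background 10.3%) was left out. SOX17FNV-only regions came to 6 (7.14%, background 14.6%) with SOX17FNV replicate 2 left out. The count was 5 (5.95%, background 8.64%) when SOX2 replicate 1 was dropped, and 2 (2.38%, background 4.36%) when SOX2 replicate 2 was dropped. Part of these rises follows from the construction, since a group of 1 library needs 1 call in place of 2. The median log2 ratio of the shared regions (0.05) was 0.19 when scaled by the lowest background and -0.089 by fold enrichment, and ranged from -0.072 to 0.057 over left-out libraries. The lowest-background scaling gave 2 regions lower in both SOX17FNV libraries in place of 12, and 4.18% of all shared regions in place of 18.4%, since it shifts every ratio upward. Read against that scaling's median, the Foxd3 regions 13866 and 5056 bp below and 11426 bp above the gene stood at -0.79, -0.80 and -0.70. Fold enrichment gave 7 higher in place of 13, against 15.7% of all shared regions. The chromosome 14 genes stood -0.17 from their neighbours, and -0.072 by fold enrichment. Otx2 alone stood -0.12 by fold enrichment and -0.47 against all of its chromosome. The strongest regions of Otx2 and Foxd3 turned to 0.14 and 0.12 under the lowest-background scaling, both below that scaling's median of 0.22, and ranged from -0.16 to 0.057 and from -0.16 to 0.016 over left-out libraries, above 0 without SOX2 replicate 2. Those of Zic2 and Zic5 turned to -0.14 and -0.28 by fold enrichment. The cause was not tested. Libraries of the same number also share a tag in the names of their lists, present in both groups and not explained in the labels, so whether it marks a batch is not known, and their deviations correlated at 0.23 over 57783 regions. With the replicate number as a replicate block, 15 regions were higher and 14 lower in both pairs, and the median log2 ratio was 0.03. The share over all shared regions was not computed for this pairing, so these counts have no background and are not read further. Depth limits single regions, since a pileup of 11 has a Poisson interval of 5.49 to 19.7.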
